A study of Phyllostachys edulis with 12 samples.

Results

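In moso bamboo (Phyllostachys edulis) seedlings at -2 °C, 34 genes were far lower after 24 h without having passed a set limit of decrease in the first hour. The 34 were drawn from 47091 genes in a table of RNA-seq counts. Levels are given as CPM, a gene's count divided by the library's total count and multiplied by 1000000. The members were selected on these CPM values, by 3 conditions. The lowest of its 9 control, 0.5 h and 1 h values was at least 2 CPM, both 24 h values were at most 0.25 times that lowest value, and the 0.5 h mean and the 1 h mean were each above 0.67 times the control mean. The level condition was met by 24676 genes, and 24267 of these also met the early condition. These 24267 genes, the comparison set, are those against which the members are described below, except where all genes tested are named. The same values chose the members, so the size of the 24 h fall is given as a description and not as a finding.

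The seedlings were 3 weeks old and at the 3-leaf stage. One library represents each sample. The untreated control group, the 0.5 h group and the 1 h group had 3 libraries each, and the 24 h group had 2, with 1 further labelled 24 h sample not analysed here. The controls were entered at 0 h, and no untreated group was kept for 24 h. Time in the cold and elapsed time therefore cannot be told apart in this design. The cold groups stood in a freezing chamber at -2 °C under the light and day length of the controls, and no group carried a transgene, a mutation or a second agent. The labels do not say whether a library is 1 plant or a pool, nor which organs were taken, and since the table names no gene by function, the seedling tissue was not checked against marker genes. Library totals lay between 29304206 and 34543663 counts. The pairs of libraries within a group differed by more than sampling noise, with a chi-square per degree of freedom of 21.8 to 42.2, and the 2 highest values were those of 1 h replicate 2 against its group mates.

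Moso bamboo is a large woody grass whose young shoots and seedlings can be hurt by frost. In plants a drop in temperature is known to change the RNA level of many genes, and growth and photosynthesis genes are commonly among those that fall. A lower RNA level can follow from less transcription, from faster RNA decay, or both. In whole seedlings it can also follow from a change in the mix of organs or cells. In bulk samples, fewer cells of a type and less RNA per cell cannot be told apart. The table pairs no identifier with a gene name or description, so the members are given by identifier, by level, by course over time and by listed length, and no role is assigned to any of them.

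**Figure D1:**
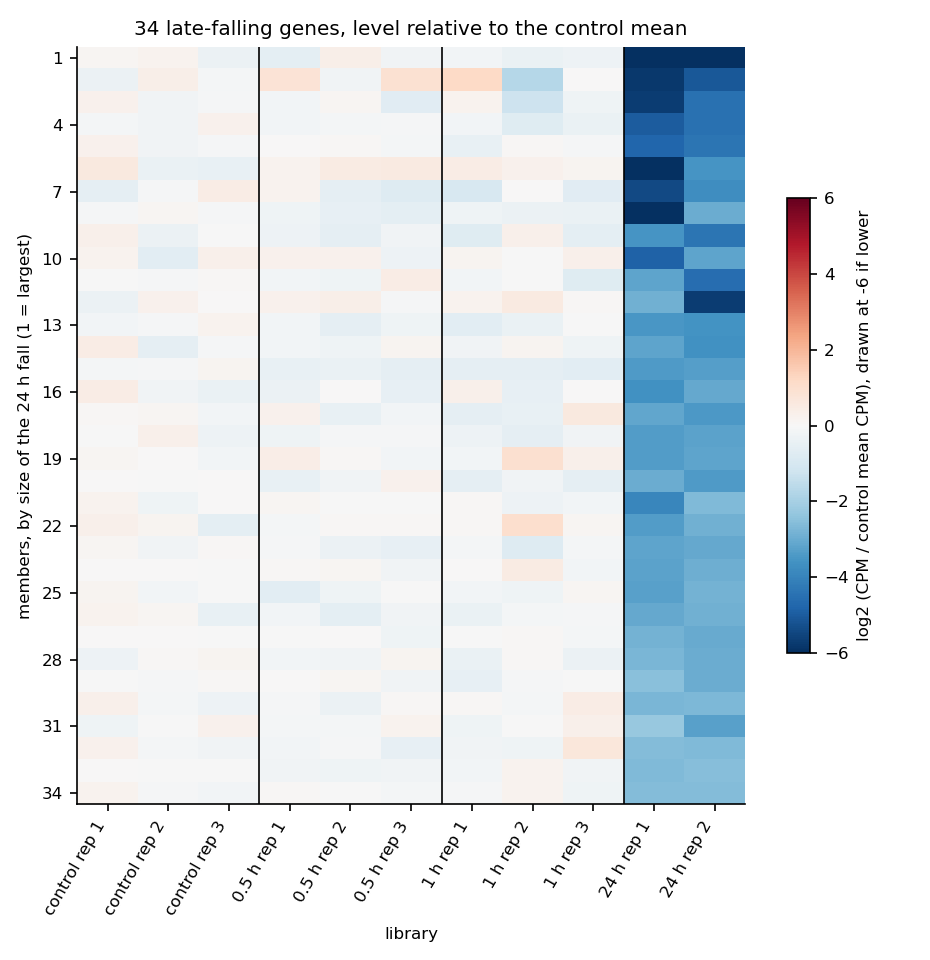
Each row is 1 of the 34 members, ordered by the size of the 24 h fall, and each column is a library. Colour gives the log2 ratio of CPM to the gene's control mean, with values under -6, including 0 counts, drawn at -6. Both 24 h columns are blue in every row, as the rule requires, and the other 9 columns are mostly pale.

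Together the members took a small part of each library. Their share of all counts was 0.0377%, 0.0365% and 0.0386% in control replicates 1 to 3, 0.0352%, 0.0342% and 0.0368% in 0.5 h replicates 1 to 3, 0.0333%, 0.0362% and 0.0334% in 1 h replicates 1 to 3, and 0.00434% and 0.00422% in the 24 h libraries. In this share 1 of the 0.5 h libraries reached the range of the controls, all 3 of the 1 h libraries lay below the lowest control, and both 24 h libraries lay far below all 9 others. As means, the share was 0.00428% ± 8.5e-05 at 24 h (SD, n = 2) and 0.0376% ± 0.00102 in the controls (SD, n = 3). One member, PH01000049G1650, held 37.5% ± 3.86 of the members' counts at 24 h and 30.9% ± 4.81 in the controls. Without it the share was 0.00267% ± 0.000112 at 24 h (SD, n = 2) and 0.026% ± 0.0019 in the controls (SD, n = 3).

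The median member had a mean of 0.675 CPM at 24 h and of 6.35 CPM in the controls. Among the 24267 genes of the comparison set the medians were 15.0 CPM at 24 h and 16.6 CPM in the controls. The members' 24 h mean was 0.103 times the control mean in the median, with a range of 0 to 0.167, against a median of 0.906 over the comparison set. By fall in mean CPM, 7 members were 16-fold or more lower at 24 h, 18 were 8-fold to 16-fold lower and 9 were less than 8-fold lower. The smallest fall was 6.003-fold. In CPM, which is not divided by length, the members came mostly from the lower part of the range. The control mean was under 5 CPM for 11 members, 5 to 20 CPM for 22 and 20 CPM or more for 1. In the comparison set, 11.9% of genes were under 5 CPM, 44.7% at 5 to 20 CPM and 43.4% at 20 CPM or more. Divided by listed length the order turned, with a median control level of 4.26 CPM per kilobase in the members and 2.57 in the comparison set. A kilobase here is 1000 of the listed length, whose unit is not stated. That length may include introns, so these values cannot be read as levels per transcript.

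**Figure D2:**
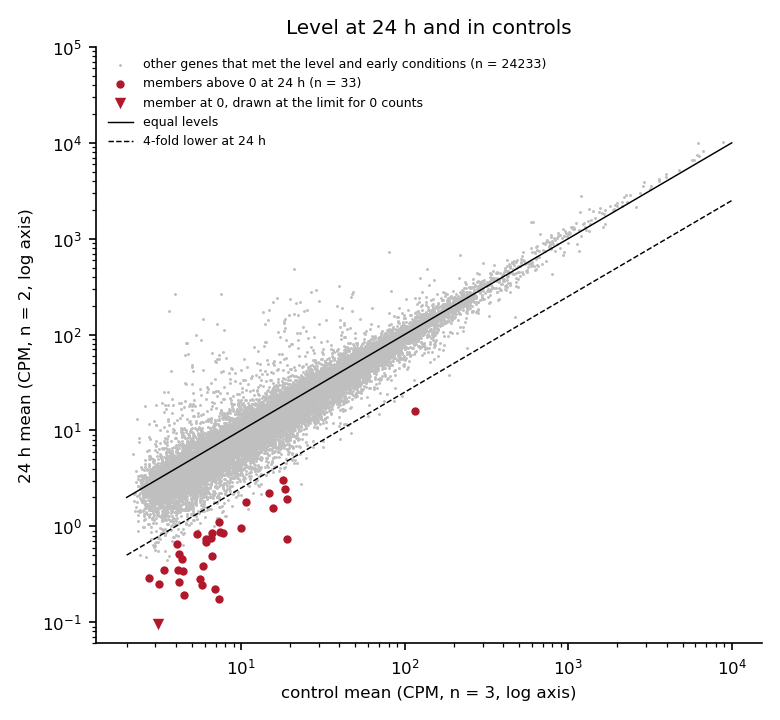
Each point is a gene, with its control mean CPM on the horizontal log axis and its 24 h mean CPM on the vertical log axis. The 34 members (red) lie below the dashed line of a 4-fold fall, the 33 with counts at 24 h between 0.174 and 16.1 CPM, and the member at 0 counts is drawn at the mean of the limits that 0 counts allow.

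Few counts remained behind the 24 h values. Members had 0 to 523 counts in 24 h replicate 1 (median 16.5) and 0 to 477 in 24 h replicate 2 (median 22.5) against 61 to 4156 in the 9 earlier libraries. Under 1 CPM in both 24 h libraries were 24 members, 8 were at 1 CPM or more in both, and 9 members in 24 h replicate 1 and 6 in 24 h replicate 2 had fewer than 10 counts. The pair of 24 h libraries agreed within 1.5 times for 22 members. For 8 members they were over 2 times apart or 0 in one library only, and none of these 8 had more than 32 counts in either library. All 14 members with at least 20 counts in both libraries agreed within 1.5 times.

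By rule, 4 members were named: the one with the largest fall at 24 h, the one highest in the controls, and those with the largest log2 fold change at 0.5 h and at 1 h. Phyllostachys_edulis_newGene_27628, an entry listed as a new gene model, had the lowest ratio of its 24 h mean to its control mean, which was 0. It measured 3.35, 3.57 and 2.44 CPM in control libraries, 2.08, 4.01 and 2.72 CPM in 0.5 h libraries, 2.81, 2.36 and 2.55 CPM in 1 h libraries and 0 counts in both 24 h libraries. The early libraries overlapped with the controls, and both 24 h libraries were empty for this gene. A count of 0 allows up to 0.1 CPM in 24 h replicate 1 and 0.0923 CPM in 24 h replicate 2 (3 counts per library, counting error only). Against the mean of these limits the gene was at least 32.4-fold lower at 24 h than the control mean of 3.12 CPM.

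PH01000049G1650 was the most abundant member in the controls, also per kilobase of listed length. It measured 95.5, 121 and 132 CPM in control libraries, 103, 99.0 and 128 CPM in 0.5 h libraries, 86.7, 120 and 92.1 CPM in 1 h libraries and 17.5 and 14.7 CPM in 24 h libraries. The 3 earlier groups overlapped and both 24 h libraries lay well under them. Its mean was 16.1 ± 1.97 CPM at 24 h (SD, n = 2) and 116 ± 18.6 CPM in the controls (SD, n = 3), and edgeR's log2 fold change, which uses TMM-scaled library sizes (totals corrected for composition), came to -2.69 (SE 0.22, edgeR adjusted p = 5.33e-05). With 523 and 477 counts at 24 h it is the member measured with the most counts there. Divided by listed length, its level was 5.36 CPM per kilobase at 24 h and 38.7 in the controls. The median member had 0.451 CPM per kilobase at 24 h and 4.26 in the controls.

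PH01000298G0510 had the highest 0.5 h mean of any member relative to its controls, and the widest early spread. It measured 5.80, 9.40 and 6.79 CPM in control libraries, 13.1, 6.41 and 13.6 CPM in 0.5 h libraries, 17.0, 2.21 and 7.56 CPM in 1 h libraries and 0.134 and 0.215 CPM in 24 h libraries. The 1 h libraries spanned both the highest and the lowest of the 9 earlier values, a 7.71-fold range, while 4 and 7 counts were left at 24 h. At 0.5 h edgeR put its log2 fold change at 0.62 (SE 0.55, adjusted p = 1), which did not pass the test. At 24 h it was -5.19 against the control (SE 0.92, edgeR adjusted p = 0.00694), a call lost without either 24 h library (edgeR adjusted p = 0.0709 without replicate 1 and 0.0661 without replicate 2, over a range of 1.77e-10 to 0.0709 in all alternatives).

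PH01001309G0230 had the lowest control mean CPM of the members. It measured 2.98, 2.77 and 2.44 CPM in control libraries, 3.55, 2.89 and 2.44 CPM in 0.5 h libraries, 2.43, 5.36 and 3.41 CPM in 1 h libraries and 0.267 and 0.308 CPM in 24 h libraries. The groups before 24 h overlapped, and 1 h replicate 2 alone lay above all the others. edgeR put its log2 fold change against the control at 0.40 for 1 h (SE 0.29, adjusted p = 0.844), not past the test, and at -3.06 for 24 h (SE 0.39, adjusted p = 0.00104), on 8 and 10 counts at 24 h.

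**Figure D3:**
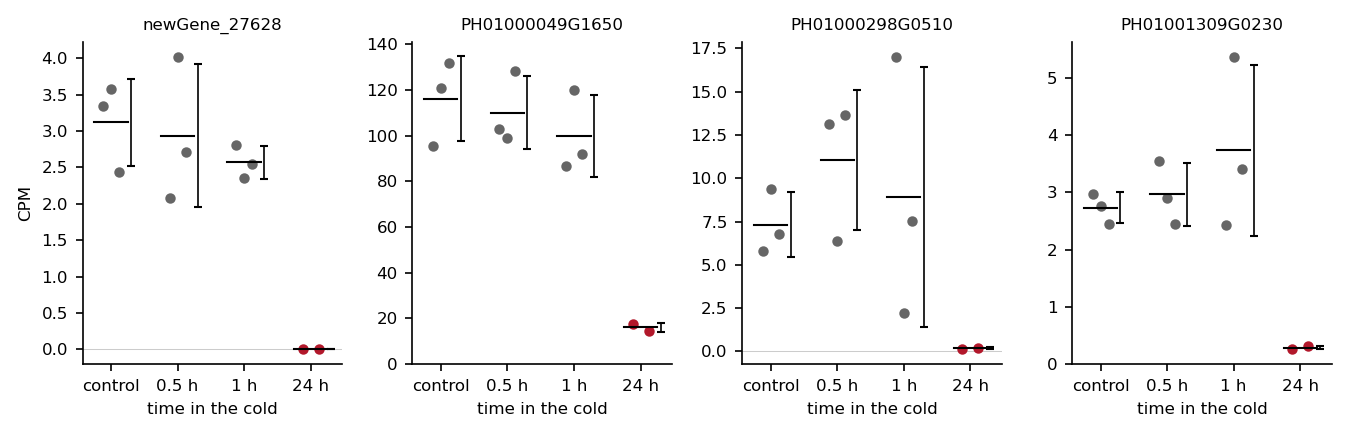
CPM of the 4 members named by rule in every library (points), with the group mean (horizontal line) and SD (bar) for the control, 0.5 h, 1 h and 24 h groups. Red points mark 24 h, where the values are 0 for newGene_27628 and at most 17.5, 0.215 and 0.308 CPM in the other panels.

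Another 5 members fell 16-fold or more besides newGene_27628 and PH01000298G0510. These and the members named below were singled out after their values were seen. PH01002017G0200 measured 8.28, 5.95 and 6.56 CPM in control libraries, 6.28, 7.50 and 4.36 CPM in 0.5 h libraries, 8.08, 2.91 and 5.81 CPM in 1 h libraries and 0.134 and 0.308 CPM in 24 h libraries. Like PH01000298G0510 it was lowest before 24 h in 1 h replicate 2. Its edgeR log2 fold change at 24 h was -4.77, with -4.34 without 24 h replicate 1 and -5.47 without 24 h replicate 2. PH01000320G0510 measured 17.8, 16.5 and 23.1 CPM in control libraries, 17.1, 17.4 and 18.1 CPM in 0.5 h libraries, 17.1, 11.6 and 14.7 CPM in 1 h libraries and 0.601 and 0.861 CPM in 24 h libraries. It was the most abundant of this group in the controls and kept 18 and 28 counts at 24 h.

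PH01002316G0030 measured 5.33, 3.90 and 4.22 CPM in control libraries, 4.50, 4.78 and 4.11 CPM in 0.5 h libraries, 3.27, 4.78 and 4.28 CPM in 1 h libraries and 0.167 and 0.215 CPM in 24 h libraries. All 3 early groups overlapped and the pair at 24 h lay close together. PH01000065G2010 measured 8.56, 4.40 and 4.29 CPM in control libraries, 6.69, 8.0 and 8.28 CPM in 0.5 h libraries, 7.82, 6.95 and 6.44 CPM in 1 h libraries and 0 and 0.492 CPM in 24 h libraries. PH01003585G0140 measured 3.84, 5.36 and 7.65 CPM in control libraries, 6.42, 3.81 and 3.27 CPM in 0.5 h libraries, 2.87, 5.64 and 3.51 CPM in 1 h libraries and 0.134 and 0.431 CPM in 24 h libraries. In both of these genes the 24 h libraries were apart from each other, with 0 and 16 counts in the first and 4 and 14 in the second. The edgeR log2 fold change of PH01000065G2010 at 24 h was -4.33, and -3.39 without 24 h replicate 1, the empty library. Without 24 h replicate 2 it was -10.5, a value that depends on how 0 counts are handled. For PH01003585G0140 it was -4.13, with -3.56 without 24 h replicate 1 and -5.18 without 24 h replicate 2.

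edgeR's quasi-likelihood test was fitted to 39640 genes, and all 34 members were among them. At 24 h against the control 34 members were called lower at an adjusted p under 0.05, where 4.34% of all genes tested were called lower. The rule used this contrast, so nothing is read from that count. The members' log2 fold changes ran from -2.42 to -5.19 apart from newGene_27628, whose fitted value depends on how a count of 0 is handled. The median was -3.10, against -0.012 over all genes tested. Against the 1 h libraries the members' median log2 fold change was -3.00, with 34 called lower (5.06% of all genes), and against the 0.5 h libraries it was -3.01, with 34 called lower (3.18% of all genes). In those contrasts too the rule had set the outcome. DESeq2 called the same number, 34, in each of the 3 contrasts.

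The early condition sets a lower limit on the 0.5 h and 1 h means and no upper one. Within these limits the members lay mostly below their controls at 1 h. The 1 h mean CPM was under the control mean for 24 of 34 members (70.6%), against 39.3% of the comparison set, and the 0.5 h mean was under it for 24 (70.6%), against 58.7%. Both means were under the control mean for 22 members (64.7%), against 27.6%. With TMM scaling, 25 of 34 members were lower at 1 h and 21 at 0.5 h, against 49.3% and 50.5% of all genes tested. The median log2 fold change of the members was then -0.16 at 1 h and -0.05 at 0.5 h, against 0.00305 and -0.00251 over all genes tested. The 2 early times share the control libraries, so a high control value lowers both ratios at once. These counts are descriptions, and no test was made of the set.

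**Figure D4:**
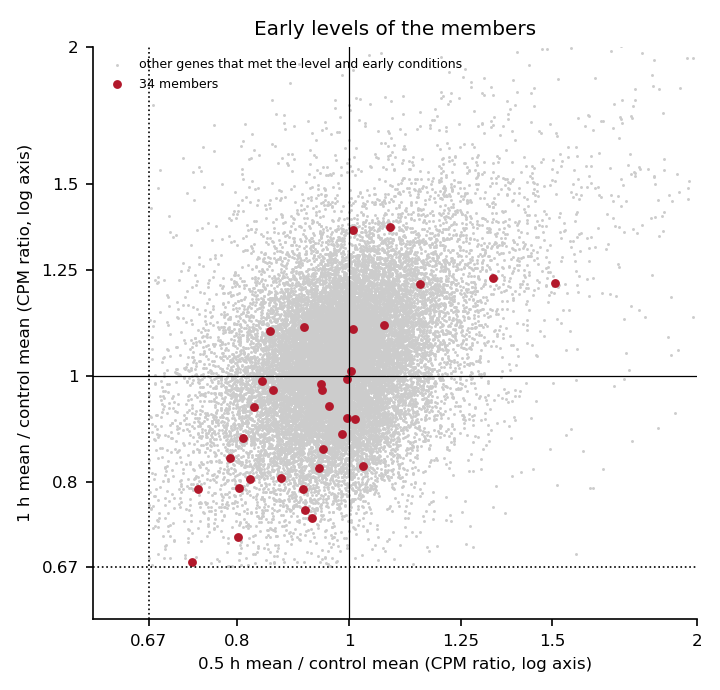
Each point is a gene, with the ratio of its 0.5 h mean to its control mean on the horizontal log axis and that of its 1 h mean on the vertical log axis. Dotted lines mark the limit of 0.67 and solid lines equal levels. Members (red) lie mainly at the lower left, where 22 of 34 have both means under the control, and other genes (grey) outside 0.6 to 2 are not drawn.

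No single member passed edgeR's test at an early time. At 0.5 h edgeR called 0 of 34 members lower and 0 higher (0.00252% and 0.00757% of all genes tested). An unadjusted edgeR p under 0.05 was reached by 1 member lower and 0 higher, against 1.88% and 2.76% of all genes. DESeq2 called 0 members, and over all genes 33 lower and 183 higher. At 1 h edgeR called 0 members lower and 0 higher (0% and 0.00505% of all genes). There an unadjusted edgeR p under 0.05 was reached by 3 members lower and 0 higher, against 3.29% and 3.59% of all genes. DESeq2 called 1 member lower at 1 h, and over all genes 54 lower and 119 higher. The members' standard errors in these contrasts had a median of 0.25 on the log2 scale, so small early shifts were not detectable in single genes. Every 0.5 h library lay below every control library for 3 members (5.54% of all genes tested) and every 1 h library did so for 3 members (3.94% of all genes). None lay wholly above the controls at either time, where 3.92% and 7.73% of all genes did. In the comparison set 4.74% of genes lay wholly below the controls at 0.5 h and 3.21% at 1 h. Wholly above them lay 3.46% and 8.05%.

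PH01004449G0030 was the member that DESeq2 called at 1 h. It measured 14.6, 14.9 and 17.8 CPM in control libraries, 11.6, 12.1 and 10.8 CPM in 0.5 h libraries, 10.8, 10.9 and 10.3 CPM in 1 h libraries and 1.502 and 1.60 CPM in 24 h libraries. Every early library was below every control, and the 1 h mean of 0.677 times the control mean was the closest of any member to the early limit. By edgeR its log2 fold change against the control was -0.42 at 0.5 h (SE 0.13, adjusted p = 0.7) and -0.62 at 1 h (SE 0.13, adjusted p = 0.404), neither past the test. The DESeq2 adjusted p at 1 h was 0.0236, the lowest of its alternatives, which reached 0.776. At 24 h the log2 value against the control was -3.18 (SE 0.17, edgeR adjusted p = 5.38e-06).

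The contrast of 1 h with 0.5 h was not limited by the rule directly. edgeR called 0 members lower and 0 higher at 1 h than at 0.5 h (0% and 0.00252% of all genes tested). An unadjusted edgeR p under 0.05 was reached by 0 members, against 3.71% of all genes lower and 3.25% higher. DESeq2 called 0 members, and over all genes 66 lower and 70 higher. The members' log2 fold changes ran from -0.41 to 0.34 with a median of -0.10, against 0.00434 over all genes, and the lowest adjusted p was 0.737. Scaled by library totals without TMM factors, the median was -0.011. The groups overlapped in all 34 members, where 3.86% of all genes were wholly lower and 10.9% wholly higher at 1 h than at 0.5 h.

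The members varied among the 9 earlier libraries somewhat more than the comparison set. The SD of log2 CPM over these 9 libraries had a median of 0.286 in the members, with a range of 0.0879 to 0.882. Its median was 0.208 in the comparison set, whose genes mostly had higher CPM. The lowest of the 9 values, which the rule used, fell in 1 h replicate 1 for 10 members and in 1 h replicate 2 for 7 (29.4% and 20.6%). In the comparison set the shares were 7.03% and 16.1%. The highest value fell in control replicate 1 for 9 of the 34 members and in 1 h replicate 2 for 8. It fell in these libraries for 10.4% and 25.5% of the comparison set. Members shared little of this variation. Their mean pairwise Pearson correlation over the 9 libraries was 0.0617 across 561 pairs, against 0.000575 over the comparison set, and -0.00857 once each group's mean was removed. These correlations share the same 9 libraries and are descriptions only.

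The members had shorter listed lengths than most of the genes they were drawn from, a property the rule did not use. The members were 578 to 4111 long by the table's length column, with a median of 1934. The comparison set had a median of 6142 and reached 396795. Of the members, 33 of 34 (97.1%) were under 4000, against 34.5% of the comparison set. The 1 longer member was newGene_27628. No source used here says whether the listed length includes introns.

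The contrast in length was also seen among genes of like control CPM, a level not divided by length. With a control mean under 20 CPM there were 33 members with a median length of 1880, among 13728 genes with a median of 5698. In this range the members made up 7.25 per 1000 genes under 1000 long, 7.20 per 1000 from 1000 to under 2000, 5.36 per 1000 from 2000 to under 4000, 0.287 per 1000 from 4000 to under 8000, and 0 of 5134 genes of 8000 or more. Falls of a like size, over all genes in this range and with the members included, were also rarer at 4000 or more. A log2 fold change of -2 or lower was seen in 1.14%, 1.57%, 1.15%, 0.344% and 0.156% of genes in the same order of length. In numbers these were 11, 24, 30, 12 and 8 genes, of which 7, 11, 14, 1 and 0 were members. The shares thus partly repeat the choice of members and are no separate support for it. The edgeR calls over all genes in this range, which set no limit on size, varied less with length. edgeR called 5.90% of genes under 1000 lower at 24 h than in the controls, 10.2% from 1000 to under 2000, 9.64% from 2000 to under 4000, 5.99% from 4000 to under 8000 and 3.74% of 8000 or more.

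Shorter genes in this range also had a wider spread of 24 h log2 fold changes, in both directions only under 2000. The middle of the distribution moved little. In the same order of length, the SD across genes was 0.704, 0.80, 0.665, 0.573 and 0.499. The medians were 0.0334, -0.0558, -0.0741, -0.0299 and -0.027. A log2 fold change of 2 or more upward was seen in 1.45%, 1.77%, 0.574%, 0.545% and 0.604% of genes. From 2000 to under 4000, where 14 members lay, such rises were thus no more frequent than at 8000 or more. One of 2 or more downward, members included, was seen in 1.14% of genes under 1000 and 0.156% of genes of 8000 or more. The part of RNA quality, and of the counting of short and long genes, in this pattern was not tested.

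**Figure D5:**
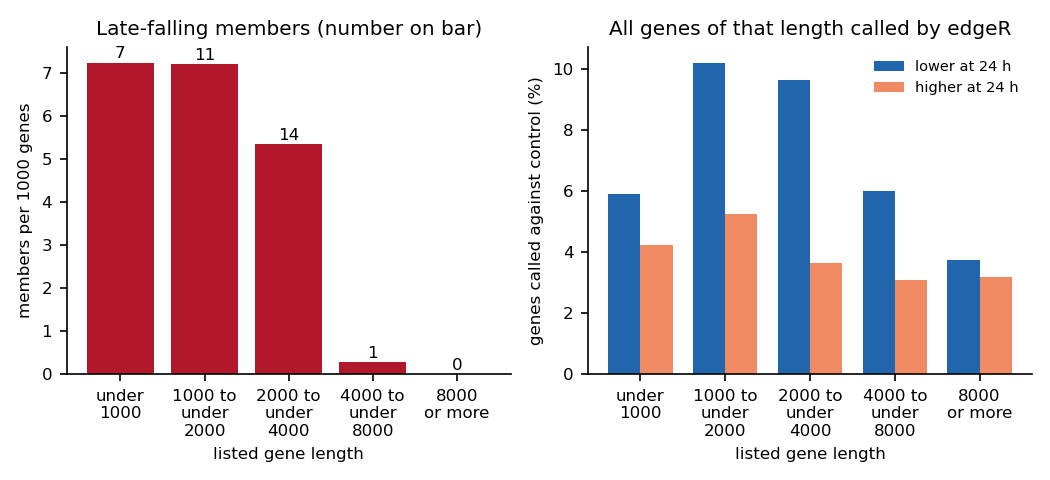
Genes with a control mean of 2 to 20 CPM that met the early condition, by listed length. The left bars give members per 1000 genes, with their number above, which is 32 in all under 4000 and 1 above. The right bars give the percentage of all such genes called lower (blue) or higher (orange) at 24 h than in the controls, from 3.74% to 10.2% lower and 3.10% to 5.24% higher.

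Newly modelled genes made up a smaller share of the members than of the comparison set, on a small number of genes and with no test. Of the 34, 4 (11.8%) were entries listed as newGene, against 21.7% of the comparison set, and 30 had a PH01 identifier. The 4 newGene members had 24 h means of 0 to 0.847 CPM and control means of 3.12 to 6.63 CPM. Among the PH01 members, PH01000493G0660 and PH01000493G0800 share the part of the identifier before the letter G. They are 1 of 435 pairs of PH01 members (0.23%), against 0.0536% of pairs of PH01 genes in the comparison set, and the positions of these genes were not used here.

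The limits of the rule did not coincide with a gap in the data. Just inside the 24 h limit, the highest 24 h value was 0.247 times the lowest earlier value in PH01000493G0800 and PH01003001G0050. Just outside it, the ratio was 0.251 in PH01000589G0300 and 0.252 in Phyllostachys_edulis_newGene_23113. Between 0.25 and 0.33 there were 37 further genes that met the level and early conditions. These near misses had a median length of 2782, and 64.9% of them were under 4000. Of them, 8 (21.6%) were newGene entries, near the share in the comparison set.

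The early condition kept out 4 genes that met the other 2 conditions, PH01000131G1340, Phyllostachys_edulis_newGene_45184, PH01003515G0030 and PH01000494G0470. Their 24 h means were 0.0484 to 0.0906 times their control means, which lies within the range of the members. All 4 were under 2000 long, from 823 to 1756. PH01003515G0030 averaged 29.5 CPM at 1 h and 3.52 CPM at 24 h, against 51.2 CPM in the controls, the second highest control level of the 38 genes with a strong late fall.

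A mirror set, genes whose 24 h values were at least 4 times the highest of the 9 earlier values and which had at least 0.5 CPM throughout, held 45 genes. Their median listed length was 1900, and 77.8% were under 4000. Only 1 of the 45 (2.22%) had both early means under the control mean, against 22 of 34 members (64.7%). At 0.5 h the median ratio to the control mean was 1.57 in the mirror set and 0.944 in the members, and at 1 h it was 1.47 in the mirror set and 0.927 in the members. Only the members were held to an early limit, so the 2 sets' early values are given side by side and were not tested against each other.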

How the data were processed

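RNA-seq reads had been aligned with HISAT2, per the submitters' processing notes. No source used here gives its version, the genome build, the annotation, the counting tool, or how strand and multiply aligned reads were treated. Genes with near-identical copies or overlapping neighbours are therefore uncertain. The authors deposited raw counts, 1 whole number per gene and library, with a listed gene length. Of 12 labelled samples, 11 had a count column that carried the code of their description. In all, 1 count column matched no sample and was not used. The codes in the labels skip a number and those in the table do not, so if the 2 numberings differ, that column may hold a further 24 h library. The design was written for 3 libraries at 24 h and run with 2.

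Members were chosen on CPM of the column total, and the members, classes and lists were chosen with earlier results of these data known. Counts were fitted with edgeR 4.0.16 (limma 3.58.1, R 4.3.3): filterByExpr kept 39640 of 47091 genes, TMM factors (0.892 and 0.923 at 24 h, 0.982 to 1.06 elsewhere) scaled the libraries, and 1 quasi-likelihood fit held all 4 groups with 7 residual degrees of freedom. P-values were adjusted by Benjamini-Hochberg over all genes tested and called under 0.05. DESeq2 1.42.0, other scalings and filters, a replicate block, and fits without each library were alternatives. The edgeR step was tested on simulated counts. The p-values measure the spread between these libraries, which may be technical. Named genes were, among the members, the largest fall at 24 h, the highest control mean and the largest log2 fold changes at 0.5 h and 1 h. Replicate numbers did not pair the samples.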

Additional observations from a re-analysis of the deposited data

Results flagged for a closer look

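Changes against the control that differed between times, by edgeR's test of the times against each other at an adjusted p under 0.05, were singled out. With at most 3 libraries in a group, no test for a library standing apart was made.

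All 34 members had a change at 24 h that differed from that at 1 h, and all 34 one that differed from that at 0.5 h. The rule for members used both differences, and the control cancels in them. For the members named by rule, the log2 fold change of 24 h against 1 h was -9.29 for Phyllostachys_edulis_newGene_27628, -2.41 for PH01000049G1650, -5.43 for PH01000298G0510 and -3.46 for PH01001309G0230. Against 0.5 h the values were -9.58, -2.64, -5.81 and -3.21 in the same order. The values of newGene_27628 depend on how its 0 counts at 24 h are handled and give no bound.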

How the results depend on the processing

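The number of members depended on the limits of the rule. It was 34 as given, 71 with a 24 h limit of 0.33, 55 with a lowest level of 1 CPM and 12 with one of 5 CPM. Leaving out 1 library gave 33 to 85 members, with 85 and 84 without 24 h replicates 1 and 2. The rule chose the members on these same libraries, so nothing is read from how many stayed called in the 24 h contrasts. The members called lower at 24 h numbered 33 to 34 without 1 library in the contrast with the control, 33 to 34 against 1 h and 32 to 34 against 0.5 h. At 0.5 h, 1 h and 1 h against 0.5 h, 0 members were called without any single library (0 to 0), and DESeq2 called 1 at 1 h. The replicate block, a term for the replicate number, left 34 members called at 24 h against the control, 34 against 1 h, 33 against 0.5 h and 0 in each early contrast. Same-numbered libraries correlated at -0.21 to 0.171 in their deviations from group means, over 0.1 in 2 of 15 pairs. With TMM-scaled library sizes the members' share was 0.00472% at 24 h and 0.0325% at 1 h, against 0.00428% and 0.0343% by column total. Without 24 h replicate 1 or 2, the 24 h fold change of 9 members moved by over 1.5 times. Among them PH01000065G2010 had a log2 fold change of -3.39 without replicate 1 and -10.5 without replicate 2. Phyllostachys_edulis_newGene_37156 had -2.85 and -10.1 in the same order. Both genes had 0 counts in replicate 1, so their values without replicate 2 depend on how 0 is handled. PH01002017G0200 had -4.34 and -5.47, PH01003585G0140 -3.56 and -5.18, and PH01004035G0040 -5.47 and -2.67. Over all alternatives the edgeR or DESeq2 adjusted p of PH01000065G2010 ran from 3.41e-13 to 0.0499. That of newGene_37156 ran from 1.59e-11 to 0.0702, and 1 alternative lost its call. Over all genes, DESeq2 called 4895 at 24 h against 3008 by edgeR, and edgeR called 1948 there with the compared groups alone, 1357 without 24 h replicate 1 and 1281 without 24 h replicate 2. DESeq2 called 216 against 4 at 0.5 h and 173 against 2 at 1 h. Counts at 24 h, a median of 42.5 per member in the 2 libraries together, limit the size of each fall.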
